A study of Rattus norvegicus with 23 samples.

Results

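Described here are 5 genes that mark astrocytes or clear glutamate in the brain, chosen by name and read by their Ensembl identifiers, out of 32494 genes in the count tables. They are Gfap (ENSRNOG00000002919), Aqp4 (ENSRNOG00000016043), S100b (ENSRNOG00000001295), Slc1a2 (ENSRNOG00000005479) and Slc1a3 (ENSRNOG00000016163). The choice was made with earlier results of these data known. Cells came from the brains of Sprague Dawley rats at embryonic day 15 and were kept for 14 days as agitated 3D aggregates, small spheres of mixed brain cells. Aggregates received 120 ng/ml sepiapterin, a pteridine that cells convert to the cofactor tetrahydrobiopterin, or phosphate-buffered saline (PBS) as control, and were sampled at T6, T12 and T24, taken here as hours. A control group at T0 completes 7 groups of 3 libraries, and 2 of the T12 controls have a repeat library, which makes 23 libraries in all. All groups share the strain, embryonic age and culture, and the labels do not tell whether replicates were separate cultures. The p-values therefore rest on a spread between libraries that may be technical in part.

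Astrocytes are glial cells that support neurons, buffer ions and water, and take up the glutamate released at synapses. Gfap encodes an intermediate filament of astrocytes whose level rises when they become reactive. Aqp4 encodes the main water channel of astrocyte end feet, and S100b a calcium-binding protein of astrocytes that oligodendrocyte lineage cells can also express. Slc1a3 encodes the glutamate transporter GLAST (EAAT1), prominent in radial glia and young astrocytes, and Slc1a2 the transporter GLT-1 (EAAT2), which becomes the major one as astrocytes mature. The data are from bulk RNA, in which fewer cells of a type and less RNA per cell cannot be told apart.

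The sequences before the start sites of both transporter genes are shown because these members passed the test between T6 and T12 averaged over treatments. That contrast was added after the data were seen, and 15.5% of all genes passed it. Each sequence is the 250 bases before the start of the first listed transcript in RefSeq on assembly GRCr8. It runs 5′ to 3′ on the gene's strand, with CG dinucleotides in capitals. The Slc1a2 window lies at chr3:109459859-109460108 on the plus strand and the Slc1a3 window at chr2:59557809-59558058 on the minus strand.
Slc1a2: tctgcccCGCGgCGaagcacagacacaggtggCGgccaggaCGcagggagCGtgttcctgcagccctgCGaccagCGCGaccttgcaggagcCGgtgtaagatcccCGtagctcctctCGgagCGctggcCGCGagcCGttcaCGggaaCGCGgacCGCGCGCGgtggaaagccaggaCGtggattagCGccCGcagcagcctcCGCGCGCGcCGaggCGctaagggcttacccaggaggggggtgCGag
Slc1a3: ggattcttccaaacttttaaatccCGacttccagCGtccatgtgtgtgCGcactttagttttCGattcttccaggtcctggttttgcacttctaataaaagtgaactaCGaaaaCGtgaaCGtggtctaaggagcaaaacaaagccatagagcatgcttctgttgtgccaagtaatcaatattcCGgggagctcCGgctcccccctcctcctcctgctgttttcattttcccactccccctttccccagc
The Slc1a2 window held 33 CG dinucleotides at a GC content of 71.2%, and the Slc1a3 window held 9 at 48%. Over 33469 windows of rat genes, later listed windows of the same gene included, the median was 5. This places Slc1a2 at percentile 97 and Slc1a3 at percentile 64.1. A later listed Slc1a2 window, at chr3:109507697-109507946, held 2 at a GC content of 45.6% (percentile 28.6). The later listed Slc1a3 windows held 10 each, so the contrast between these genes depends on the Slc1a2 start chosen. The first windows of the other members held 1 (Gfap), 4 (Aqp4) and 5 (S100b) CG dinucleotides. The letters TATAAA, searched on both strands, were in none of the members' 5 first windows and in 12.9% of all windows. These counts describe letters in a window and not binding of any factor.

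All 5 genes were well covered. Libraries had 16991417 to 26588314 reads in genes, the lowest count of any member was 1023 reads (Slc1a2 in T0 control replicate 2), and all 5 passed the filter on low counts that left 14035 genes for testing. Levels are TMM-scaled CPM, read counts relative to all reads in genes of a library, and changes are log2 fold changes from edgeR's quasi-likelihood test with standard errors (SE). A gene is called changed at an adjusted p (Benjamini-Hochberg over all genes tested) below 0.05. T0 control replicate 1 stood apart from its group, at root mean square log2 distances of 0.364 and 0.392 from the other T0 controls, which lay 0.253 from each other. Within the other groups these distances were 0.22 to 0.301. For T12 samples 10 and 11 the titles and the file headers disagree on which library is the repeat. Values go by title, and those by header are given where they matter. T6 and T12 were prepared in a first batch and T24 with the T12 repeats in a second, per the labels, while no batch is named for T0.

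**Figure D1:**
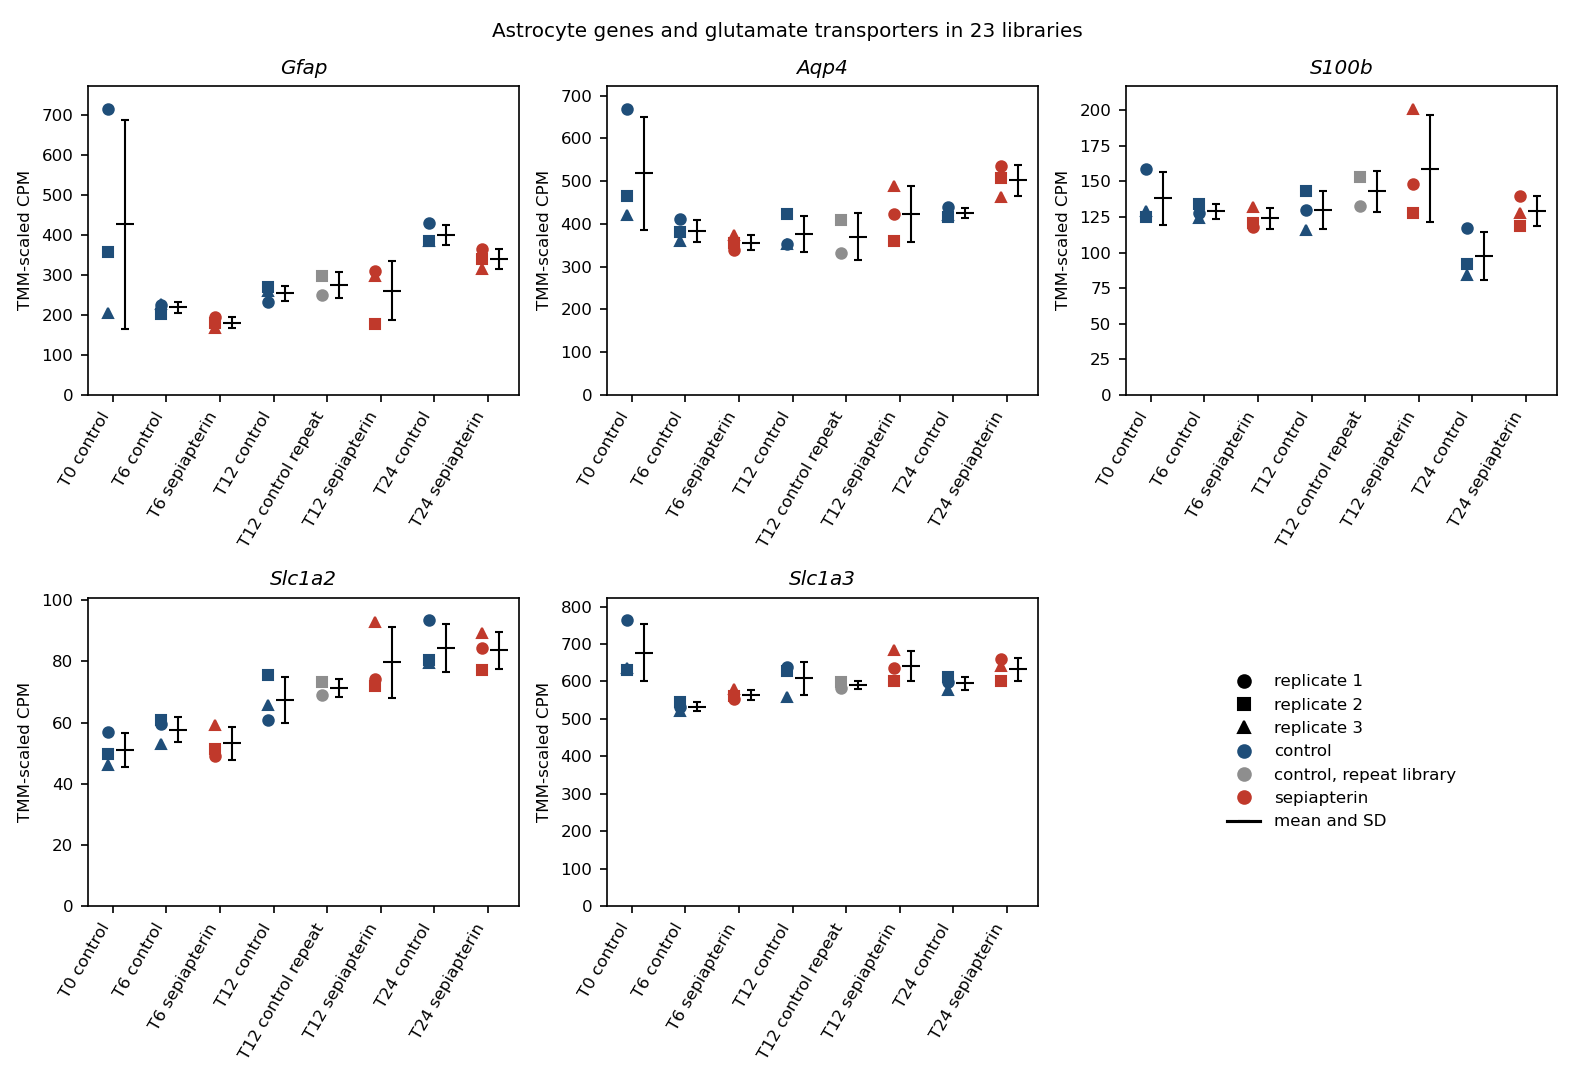
Level of each gene in every library (TMM-scaled CPM, vertical axes from 0), with points for libraries and a bar for mean and SD of each group (n = 3, or 2 for the repeats). T0 control replicate 1 is the highest library for Gfap (716 CPM), Aqp4 (669 CPM) and Slc1a3 (763 CPM), and Slc1a2 is lowest at T0 and highest at T24.

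Over all 23 libraries Gfap varied most between its lowest and highest library and Slc1a3 least. Gfap ran from 168 CPM (T6 sepiapterin replicate 3) to 716 CPM (T0 control replicate 1), a 4.26-fold range with a median of 271 CPM. S100b spanned 2.39-fold (84 to 201 CPM), Aqp4 2.02-fold (331 to 669 CPM), Slc1a2 2.02-fold (46.3 to 93.4 CPM) and Slc1a3 1.46-fold (522 to 763 CPM). The filament gene also differed most between libraries of 1 group, with a within-group SD of 0.392 log2 units against a median of 0.102 over 14035 genes, at percentile 93.5. Without T0 control replicate 1 it was 0.255, at percentile 85.9. The SD was 0.18 for Aqp4, 0.19 for S100b, 0.145 for Slc1a2 and 0.087 for Slc1a3, the last below the median of all genes.

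Sepiapterin did not bring any of the 5 genes past the test at any time. At T6, T12 and T24 and in the average over the 3 times, 0 of 5 were called by edgeR, and DESeq2 also called 0 each time. The background of all genes called was 0% at T6, 0.0214% at T12, 4.17% at T24 and 1.03% in the average. At an unadjusted p under 0.05 there were 0 members at T6, 1 at T12 (Slc1a2), 1 at T24 (S100b) and 2 in the average (S100b and Slc1a3). Of all 14035 genes tested, 301, 2231, 2870 and 2472 had such a p, in the same order. The members' median log2 fold change was -0.11 at T6, 0.17 at T12, 0.09 at T24 and 0.08 in the average. Scaling between libraries holds the median over all genes near 0 (0, 0.004, 0.006 and 0.003), so it is no background for these. Without sign, the members' median change was 0.11, 0.17, 0.23 and 0.1, against 0.048, 0.089, 0.101 and 0.054 over all genes. All members but Slc1a3 also had a within-group SD above the median of all genes. The 95% intervals leave room for sizeable differences, above all for Gfap.

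**Figure D2:**
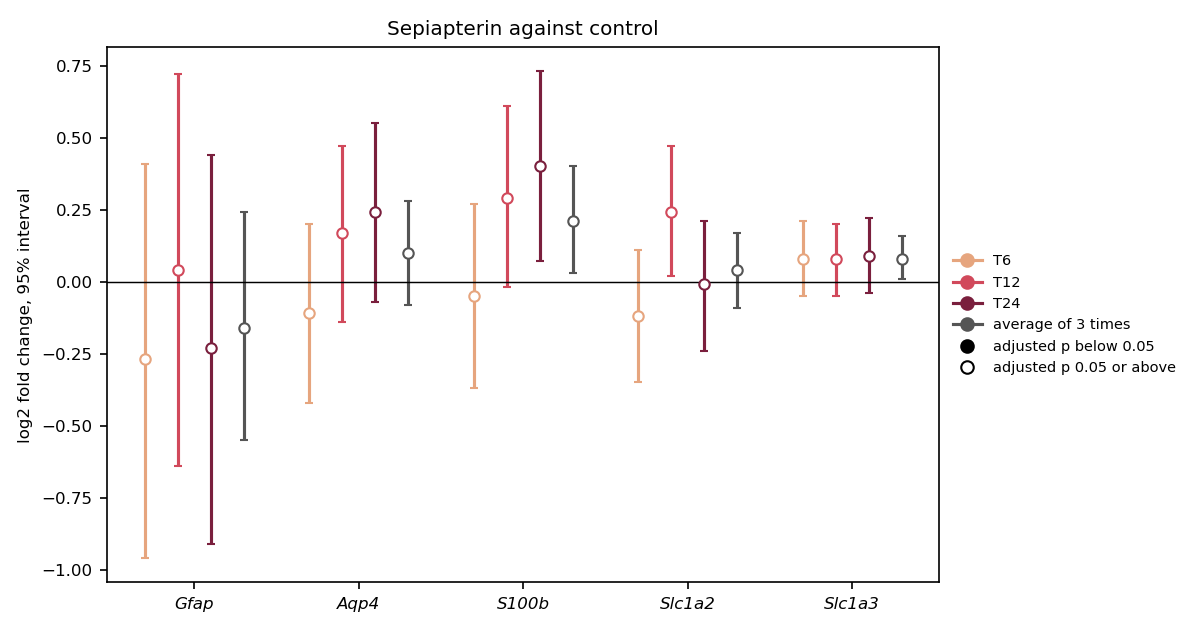
Log2 fold change of sepiapterin against control for each gene at T6, T12 and T24 and averaged over the 3 times, with 95% intervals from edgeR (n = 3 libraries per group). All points are open, since none had an adjusted p below 0.05, and the intervals of Gfap are the widest (-0.96 to 0.41 at T6).

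Among the astrocyte structural genes, Gfap was lower with sepiapterin in every library at T6 and T24, without passing the test. At T6 the sepiapterin libraries had 194, 180 and 168 CPM and the controls 225, 203 and 228 CPM, which gave a log2 fold change of -0.27 ± 0.32 (SE, adjusted p 1). At T24 they had 365, 340 and 316 CPM against 430, 385 and 384 CPM, which gave -0.23 ± 0.32 (adjusted p 0.73). The groups did not overlap at either time. At T12 the sepiapterin libraries spread from 176 to 311 CPM and enclosed the controls (233 to 271 CPM). The difference was 0.04 ± 0.32 log2 units, or -0.05 with T12 controls by file header. The SE of Gfap takes in the spread of T0 control replicate 1 through the shared fit. Without that library the values were -0.27 ± 0.21 at T6 and -0.24 ± 0.2 at T24, with adjusted p of 1 and 0.53. Fits of the libraries compared alone gave an SE of 0.06 at both times, with adjusted p of 0.29 at T6 and 0.061 at T24.

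Aqp4, the water channel, stood higher with sepiapterin at T24. Sepiapterin libraries had 536, 507 and 463 CPM and controls 439, 416 and 421 CPM, with means of 502 ± 36.8 and 425 ± 12.1 CPM (SD, n = 3 each). The groups did not overlap, and the difference was 0.24 ± 0.14 log2 units (SE, adjusted p 0.38). A fit of the T24 libraries alone gave the same change with an SE of 0.06 and an adjusted p of 0.05, just under the threshold before rounding, so this is the member whose sepiapterin call depends on which libraries set the spread. At T6 and T12 the groups overlapped, with log2 fold changes of -0.11 ± 0.14 and 0.17 ± 0.14 and adjusted p of 1 and 0.6. The T12 value was 0.05 without T12 sepiapterin replicate 3, 0.27 without T12 sepiapterin replicate 2 and 0.26 without T12 control replicate 2.

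S100b had the largest difference between treatments among the members. At T24 the controls had 117, 91.8 and 84 CPM and the sepiapterin libraries 140, 119 and 128 CPM. Every sepiapterin library was above every control, though the lowest of them (119 CPM) was close to the highest control (117 CPM). The means were 129 ± 10.4 and 97.5 ± 17.1 CPM, a 1.32-fold difference with a log2 fold change of 0.4 ± 0.15 (95% interval 0.07 to 0.73, unadjusted p 0.021, adjusted p 0.15). At T12 the sepiapterin libraries had 148, 128 and 201 CPM and the controls 130, 143 and 116 CPM, which overlap, and the log2 fold change was 0.29 ± 0.15 (adjusted p 0.35). Without T12 sepiapterin replicate 3, the library at 201 CPM, it was 0.09 (adjusted p 0.88). The average over the 3 times was 0.21 ± 0.09 with an adjusted p of 0.22.

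Neither glutamate transporter passed the test with sepiapterin at any time. Slc1a2 at T12 had 74.4, 71.8 and 92.9 CPM with sepiapterin and 60.7, 75.6 and 65.6 CPM in controls. The groups overlapped, with a difference of 0.24 ± 0.11 log2 units (SE, 95% interval 1.18% to 38.6% higher). The unadjusted p was 0.037 and the adjusted p 0.28. Without T12 sepiapterin replicate 3, the library at 92.9 CPM, the difference was 0.12 (adjusted p 0.75). At T6 and T24 its log2 fold changes were -0.12 ± 0.11 and -0.01 ± 0.11, and the 95% interval at T24 ran from -15.5% to 16%. Slc1a3 was 0.08 to 0.09 log2 units higher at each time, and the average of 0.08 ± 0.04 (95% interval 0.56% to 11.5% higher, unadjusted p 0.031) had an adjusted p of 0.23. At T6 its sepiapterin libraries (552, 560 and 580 CPM) were all above the controls (532, 546 and 522 CPM), with an adjusted p of 1.

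Libraries of sepiapterin and control did not overlap for 2 of 5 members at T6 (Gfap and Slc1a3), 0 at T12 and 3 at T24 (Gfap, Aqp4 and S100b). Over all genes tested the shares were 10.7%, 22.2% and 23.5%. When T12 controls were taken by file header, log2 fold changes at T12 were 0.21 for Aqp4, 0.24 for S100b, 0.2 for Slc1a2 and 0.14 for Slc1a3, and again 0 were called. The sepiapterin effect was also compared between times. None of the 5 members was called in T12 against T6, T24 against T12 or T24 against T6, where 0%, 0.235% and 0% of all genes were. DESeq2 also called none. Only Slc1a2 in T12 against T6 had an unadjusted p under 0.05 (0.031, adjusted p 0.67, difference of effects 0.36 ± 0.15 log2 units). Such a p was found for 1049 of 14035 genes in T12 against T6, 1798 in T24 against T12 and 1662 in T24 against T6.

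Calls between times are given below by contrast, each beside the share of all genes called. S100b passed in none of them in the main edgeR fits. DESeq2 called it in T24 controls against the T12 repeats (adjusted p 0.028). Between T0 and T6, control aggregates had lower Gfap, Aqp4 and Slc1a3, and 3 of 5 members were called where 21.6% of all genes were. The members' median log2 fold change was -0.35. Without sign it was 0.35, against 0.134 over all genes. Libraries were apart for 2 of 5 members (Aqp4 and Slc1a3), against 35.7% of all genes. The batch of T0 is not given, so time and batch cannot be told apart here.

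The fall of Slc1a3 was the steadiest of the 3. T0 controls had 763, 631 and 636 CPM and T6 controls 532, 546 and 522 CPM, so every T6 control lay below every T0 control. The means fell from 677 ± 75 to 533 ± 12 CPM, a 1.27-fold drop with a log2 fold change of -0.35 ± 0.06 (SE, adjusted p 0.00033). Without T0 control replicate 1 it was -0.24 with an adjusted p of 0.0015, and the call held in all 11 alternatives, where adjusted p ran from 9.1e-06 to 0.024.

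The calls of Gfap and Aqp4 did not hold without T0 control replicate 1. Gfap had 716, 358 and 206 CPM in the T0 controls and 225, 203 and 228 CPM in the T6 controls, so the lowest T0 control lay within the T6 range. Its log2 fold change was -0.97 ± 0.32 (adjusted p 0.043), and without T0 control replicate 1 it was -0.36 ± 0.23 (adjusted p 0.28). Aqp4 had 669, 464 and 420 CPM at T0 and 412, 381 and 360 CPM at T6, with a log2 fold change of -0.44 ± 0.14 (adjusted p 0.042). Without that library it was -0.2 ± 0.11 (adjusted p 0.21). Each of these calls was lost in 7 of 11 alternatives, among them leaving out any single T6 control.

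That T0 library stood high for every member, and for Gfap far more than for most genes. Relative to the mean of the other T0 controls it was 2.54-fold for Gfap, 1.51-fold for Aqp4, 1.26-fold for S100b, 1.21-fold for Slc1a3 and 1.18-fold for Slc1a2. On the log2 scale the Gfap difference of 1.4 was at percentile 99.3 of 14035 genes and that of Aqp4 (0.6) at percentile 94.6. Markers of other cell types could not be looked up by symbol, so their part in this was not tested. S100b and Slc1a2 were not called between T0 and T6, at -0.1 ± 0.15 (adjusted p 0.68) and 0.17 ± 0.11 (adjusted p 0.29). The Slc1a2 value was 0.27 without T0 control replicate 1 and 0.1 without T0 control replicate 3.

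**Figure D3:**
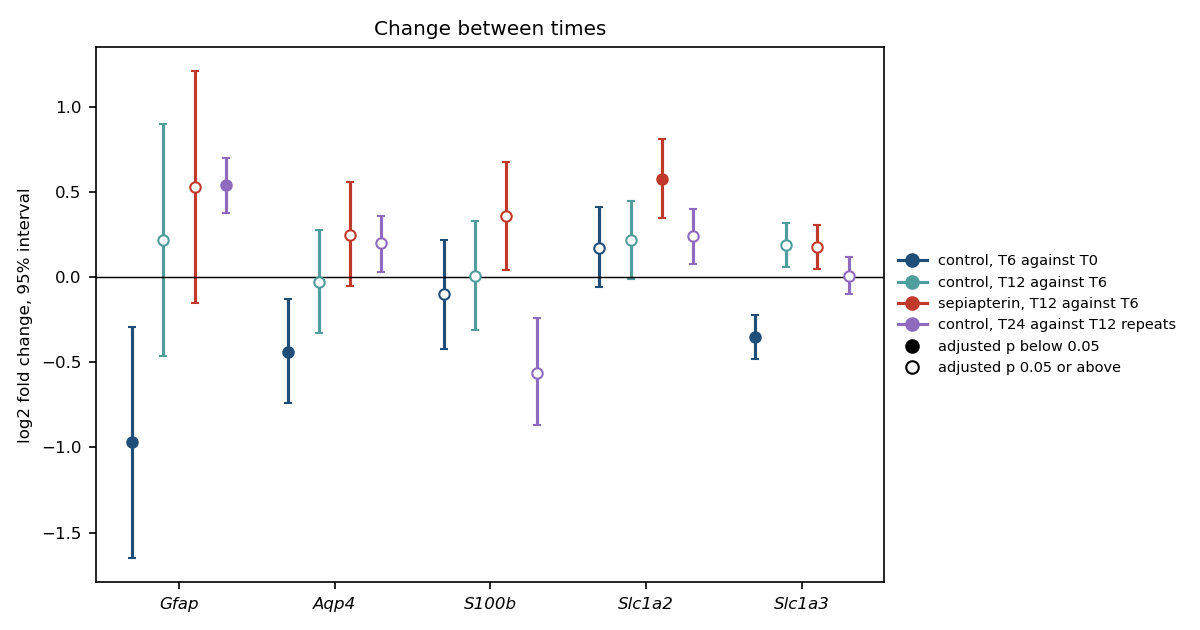
Log2 fold change between times for each gene with 95% intervals from edgeR; filled points have an adjusted p below 0.05. Filled are Gfap, Aqp4 and Slc1a3 in T6 against T0 controls, Slc1a2 in sepiapterin aggregates at T12 against T6, and Gfap in T24 controls against the T12 repeats (n = 3 libraries per group, 2 for the repeats).

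Between T6 and T12, which share a library batch by label, both glutamate transporters were higher at the later time. In sepiapterin aggregates Slc1a2 rose 1.5-fold, from 49.1, 51.4 and 59.2 CPM to 74.4, 71.8 and 92.9 CPM. Every T12 library lay above every T6 library, a rise of 0.58 ± 0.11 log2 units (SE, adjusted p 0.0071). It was the only member called, where 4.37% of all genes were, and without T6 sepiapterin replicate 1 it was 0.53 with an adjusted p of 0.056. In controls 0 of 5 members were called by edgeR where 4.67% of all genes were. DESeq2 also called 0, and 1 member (Slc1a3) had an unadjusted p under 0.05 in edgeR, as did 2998 of 14035 genes. There Slc1a2 had 59.4, 60.7 and 53.1 CPM at T6 and 60.7, 75.6 and 65.6 CPM at T12, a difference of 0.22 ± 0.11 log2 units (adjusted p 0.26), or 0.14 without T12 control replicate 2. The difference between these 2 rises is the sepiapterin effect at T12 minus that at T6 given above, which did not pass the test (adjusted p 0.67).

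In the main fit Slc1a3 had nearly the same difference in both treatments. Its log2 fold change was 0.19 ± 0.06 in controls (533 to 608 CPM, adjusted p 0.077) and 0.18 ± 0.06 with sepiapterin (564 to 641 CPM, adjusted p 0.091), and libraries of the times did not overlap in either. Without T0 control replicate 1, whose spread enters the fit, both were called, with adjusted p of 0.015 and 0.017. The control difference was also called without T12 control replicate 3 (0.25, adjusted p 0.017). Over 12 alternatives the control difference ran from 0.12 to 0.25 (adjusted p 0.012 to 0.33), and 3 of them called it. The sepiapterin difference ran from 0.13 to 0.22 (adjusted p 0.017 to 0.39), and 2 of 12 called it. Libraries were apart for 2 of 5 members in controls (Gfap and Slc1a3, against 29% of all genes) and for 2 of 5 with sepiapterin (both transporters, against 30.8% of all genes).

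The average of both treatments, a contrast added after the data were seen, called Slc1a2 and Slc1a3 higher at T12, where 15.5% of all genes were called. Slc1a2 rose by 0.4 ± 0.08 log2 units (adjusted p 0.0024) and Slc1a3 by 0.19 ± 0.04 (adjusted p 0.0063), and both calls held in all 18 alternatives. Gfap (0.38 ± 0.23, adjusted p 0.28), Aqp4 (0.11 ± 0.1, adjusted p 0.5) and S100b (0.19 ± 0.11, adjusted p 0.26) were not called. Without T12 sepiapterin replicate 3 the values of Aqp4 and S100b were 0.05 and 0.08. The members' median without sign was 0.19 and that of all genes 0.086. The T6 controls enter both this contrast and that of T6 against T0, so the fall of Slc1a3 before T6 and its rise after it share samples.

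T24 controls were compared with the T12 repeat libraries so as to stay within the second batch if the titles are right. Gfap was the only member called in the main fit, and it was higher at T24. T24 controls had 430, 385 and 384 CPM and the repeats 251 and 297 CPM, a 1.45-fold difference with no overlap. The log2 fold change was 0.54 ± 0.08 (SE, adjusted p 0.002), where 5.54% of 13653 genes were called. By file header it was 0.67 with an adjusted p of 0.00095. Without T12 control repeat replicate 1, the lower of the repeats, it was 0.42 with an adjusted p of 0.074, and the lone repeat is then assumed to vary like the other groups.

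S100b went the other way without passing the test, from 133 and 153 CPM in the repeats to 117, 91.8 and 84 CPM at T24, a log2 fold change of -0.56 ± 0.14 (adjusted p 0.057). It was called lower by DESeq2 (adjusted p 0.028) and without T24 control replicate 1 (-0.71, adjusted p 6e-05). Slc1a2 was 0.24 ± 0.08 log2 units higher (69.1 and 73.3 CPM against 93.4, 80.4 and 79.4 CPM, adjusted p 0.068), and it was called with no filter on low counts (adjusted p 0.012). Aqp4 differed by 0.2 ± 0.08 (adjusted p 0.15), a value of 0.05 without T12 control repeat replicate 1 and 0.36 without T12 control repeat replicate 2 (adjusted p 0.85 and 0.066). Slc1a3 differed by 0.01 ± 0.05 (adjusted p 0.95, 95% interval -6.99% to 8.48%). Libraries did not overlap for 4 of 5 members, with Slc1a3 the exception, against 43.8% of all genes.

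Repeat libraries show how far the members moved between libraries of the same sample. Relative to the other libraries of samples 10 and 11, edgeR called Gfap 0.12 ± 0.03 log2 units higher (adjusted p 9e-05), Aqp4 0.07 ± 0.02 lower (log2 fold change -0.07, adjusted p 0.044) and Slc1a3 0.09 ± 0.02 lower (log2 fold change -0.09, adjusted p 0.00028). The share of all 13505 genes called was 18.7%, and DESeq2 called none of the 5 members. These edgeR SE rest on 13500 degrees of freedom pooled over genes, so they do not measure each member's own spread. For Gfap, DESeq2 gave 0.12 ± 0.05 (adjusted p 0.37). The Slc1a3 difference between repeats was as large as its sepiapterin difference at each time.

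Ordered by group mean, Slc1a2 was lowest in T0 controls (51.1 ± 5.44 CPM) and highest in T24 controls (84.4 ± 7.8 CPM), followed closely by T24 sepiapterin (83.6 ± 6.02 CPM). Each neighbour in that order overlapped the next in its libraries. Gfap was lowest at T6 (181 ± 13.1 CPM with sepiapterin, then 219 ± 13.9 CPM in controls) and highest in T0 controls (427 ± 262 CPM). The T24 groups of Gfap came next, at 400 ± 26 CPM in controls and 340 ± 24.4 CPM with sepiapterin, and its 3 T12 groups, at 254 to 274 CPM, overlapped their neighbours among themselves. For S100b T24 controls were lowest (97.5 ± 17.1 CPM) and apart from the next group, while the other 7 groups, from 124 to 159 CPM, all overlapped their neighbours. Aqp4 ran from 356 ± 17.4 CPM with sepiapterin at T6 to 518 ± 133 CPM in T0 controls, and only the step from T24 controls to T24 sepiapterin was without overlap. Slc1a3 ran from 533 ± 12 CPM in T6 controls to 677 ± 75 CPM in T0 controls, and each T6 group was apart from the next higher group in that order, although T6 sepiapterin libraries (552 to 580 CPM) reached into the range of T12 controls (from 559 CPM) and T24 controls (from 576 CPM).

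The ratio of Slc1a2 to Slc1a3 reads within a library needs no scaling between libraries, and only its change is read here since the genes differ in length. It was 7.47, 7.91 and 7.29 Slc1a2 reads per 100 Slc1a3 reads in T0 controls and 11.2, 11.1 and 10.2 in T6 controls, with no overlap. At T12 controls had 9.5, 12.1 and 11.7, the repeats 11.9 and 12.2, and sepiapterin libraries 11.7, 11.9 and 13.6. At T24 controls had 15.6, 13.2 and 13.8 and sepiapterin libraries 12.8, 12.9 and 13.9. T0 was the lowest group and T24 held the highest library, and T0 control replicate 1 did not stand apart in this ratio. The batch of T0 is not given and T24 is in the second, so time and batch cannot be told apart over this range. Between libraries of the same sample the ratio was 9.5 and 11.9 (sample 10) and 12.1 and 12.2 (sample 11).

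**Figure D4:**
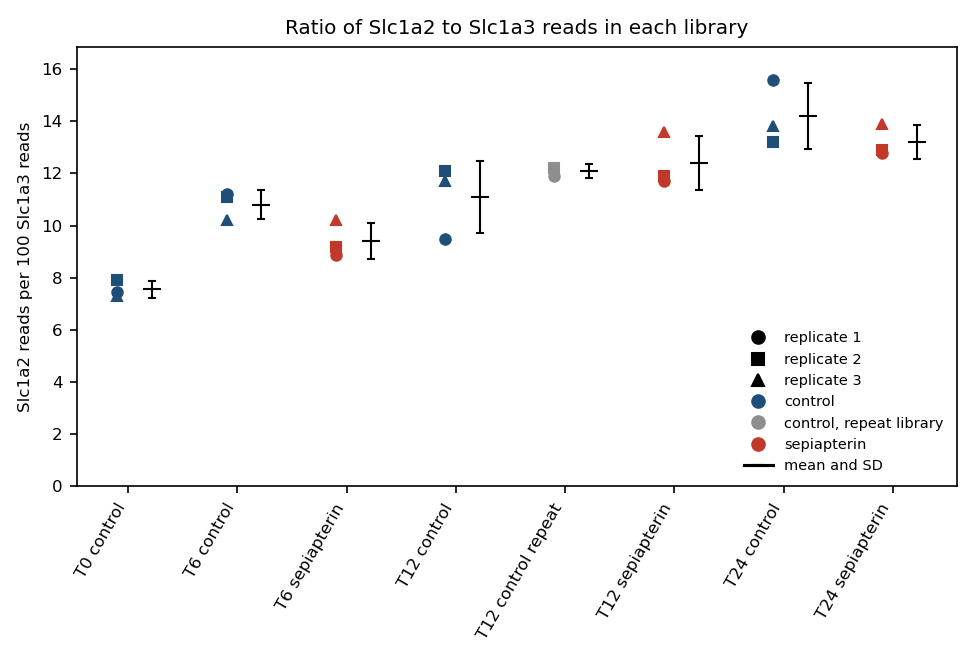
Slc1a2 reads per 100 Slc1a3 reads in each library by group, with mean and SD (n = 3, or 2 for the repeats); the vertical axis starts at 0. Group means go from 7.56 in T0 controls (batch not given) to 14.2 in T24 controls (second batch). Sepiapterin libraries overlap controls at T6, T12 and T24.

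With sepiapterin the ratio differed by -0.046 log2 units from controls over the 3 times, with a two-sided exact permutation p of 0.51 over 8000 arrangements within times. The difference was -0.2 at T6, 0.164 at T12 and -0.102 at T24, so its sign was not the same at each time. Without T12 it was -0.151 with an exact permutation p of 0.03. From T6 to T12 the ratio rose by 0.213 log2 units over both treatments (0.031 in controls, 0.395 with sepiapterin), with an exact permutation p of 0.06 over 400 arrangements in a test added after the data were seen. T12 control replicate 1 decided that value, since without it the difference was 0.267 with an exact permutation p of 0.005, and by file header it was 0.27 with an exact permutation p of 0.005, in both cases the smallest p the arrangements can give.

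Across the 23 libraries the members did not all vary together. The highest correlation of log2 CPM was between Gfap and Aqp4 (Pearson r 0.8, Spearman rho 0.73, and r 0.69 without T0 control replicate 1), followed by Aqp4 and Slc1a3 (r 0.76, rho 0.63). Gfap and S100b had an r of 0.01 (-0.2 without T0 control replicate 1), and the pair of transporters an r of 0.28 (0.47 without that library). These values mix differences between times, batches and libraries and are given as a description.

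The genes whose levels followed single members most closely, among 11963 genes with a mean of at least 1 log2 CPM, can be given by identifier only. ENSRNOG00000026745 was most like Slc1a2 (r 0.95, rho 0.94 over 23 libraries), and its group means went from 82.4 CPM in T0 controls to 122 CPM with sepiapterin at T24. ENSRNOG00000008116 was most like Aqp4 (r 0.91, rho 0.85), with a lowest group of 242 CPM (T6 controls) and a highest of 322 CPM (T24 sepiapterin). For S100b it was ENSRNOG00000011419 (r 0.91, rho 0.81), lowest in T24 controls at 81.1 CPM and highest with sepiapterin at T12 at 108 CPM. For Slc1a3 it was ENSRNOG00000020279 (r 0.89, rho 0.85), from 1060 CPM in T6 controls to 1250 CPM in T0 controls.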

How the data were processed

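The authors deposited unnormalized read counts by gene, 1 table for each of 23 libraries, with 32494 Ensembl identifiers and 5 summary lines that were left out here. Per the submitters' processing notes, cutadapt 1.8, STAR 2.5.2b, HTSeq 0.6.1 and the rat build Rnor_6.0 were used. The annotation release and the strand setting are not named there, and reads of overlapping genes may be misassigned. Reads outside any gene were 14.8 to 17.1%, reads with several alignments 23.5 to 25%, and ambiguous reads 0.224 to 0.269% of alignments tallied.

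Symbols of the 5 members come from the identifiers fixed for this report. The reference table (GRCr8, 47357 genes) holds no Ensembl identifiers, 0 identifiers matched, and the lists of other astrocyte, reactive, glutamate-handling and cell type marker genes, written as symbols, were therefore not tested. Members and lists were chosen with earlier results of these data known.

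Tests used edgeR 4.0.16 in R 4.3.3 (quasi-likelihood, robust, TMM, filterByExpr with minimum count 10). The 21 libraries of the 7 groups were fitted together (14 residual degrees of freedom, 14035 genes). T24 controls were compared with 2 T12 repeats in a separate fit (13653 genes) to which the T24 sepiapterin libraries add spread, and repeat with first libraries in a fit with sample as a block (13505 genes). DESeq2 1.42.0, library size only, no filter, grouping by file header, only the libraries compared, and leaving out each library were alternatives. Fits were tested on simulated data. No replicate pair agreed within sampling noise. Besides the members, the rule named the most correlated gene (log2 CPM, prior count 2) of each member, at most 4, highest first. Promoter windows are RefSeq's on GRCr8.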

Additional observations from a re-analysis of the deposited data

How the results depend on the processing

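By title and by file header, and with library size only, no filter, DESeq2 or only the libraries compared, 0 members were called for sepiapterin at T6, T12 and in the average. At T24 1 (Aqp4) was called with only the libraries compared. In T6 against T0 controls 1 member was called with no filter and 1 with only the libraries compared. In T12 against T6, 2 were called with only the libraries compared, in controls (Gfap, adjusted p 0.022, and Slc1a3, adjusted p 0.012) and with sepiapterin. In T24 against the T12 repeats 2 were called with no filter, 2 with DESeq2 and 2 with only the libraries compared. For the repeat libraries DESeq2 called 0. The share of all genes called under these alternatives was not tallied, so a changed count of members cannot be told from a change over all genes.

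Directions turned in small values. With library size only, Slc1a3 was 0 in the sepiapterin effect at T24 minus T6 and -0.02 in T24 against the T12 repeats, and S100b was -0.01 in T12 against T6 controls. By file header Gfap with sepiapterin at T12 was -0.05, and Slc1a3 was 0.06 in the effect at T12 minus T6, -0.06 at T24 minus T12 and -0.09 in T24 against the repeats. The transporter ratio with sepiapterin was 0.031 without T6 (exact permutation p 0.76) and -0.151 without T12, and from T6 to T12 it was 0.27 by file header. The cause was not tested.

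Leaving out 1 library at a time, the number of members called was 1 to 3 in T6 against T0, 0 to 1 in T12 against T6 controls, 0 to 2 with sepiapterin, and 0 to 2 in T24 against the repeats. Without T0 control replicate 1 these were 1, 1 and 2 for the first 3. The share of all genes called in these fits was not tallied, so the counts cannot be set against a background. The transporter ratio ran from 0.179 to 0.267 for T12 minus T6 and from -0.082 to -0.022 for sepiapterin minus control. Sepiapterin log2 fold changes at T12 ran from -0.11 to 0.25 for Gfap, at T24 from -0.06 to 0.07 for Slc1a2, and in the average from 0 to 0.07 for Slc1a2. The effect at T12 minus T6 ran from -0.07 to 0.03 for Slc1a3. At T24 minus T12 it ran from -0.03 to 0.08 for Slc1a3, -0.03 to 0.19 for Aqp4 and -0.03 to 0.31 for S100b. At T24 minus T6 it ran from -0.01 to 0.1 for Gfap and -0.02 to 0.05 for Slc1a3. In T12 against T6 controls it was -0.12 to 0.02 for Aqp4 and -0.06 to 0.09 for S100b, in T6 against T0 -0.17 to 0.03 for S100b, and in T24 against the repeats -0.01 to 0.03 for Slc1a3. Repeat and first libraries of samples 10 and 11 were compared with sample as a block. No paired analysis was possible because the other groups share no sample numbers in the labels. Each member had at least 1023 reads in every library, and intervals reflect the spread between 2 or 3 libraries per group.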
